A study of Mus musculus and Homo sapiens with 27 samples.

Results

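The LPS response of B cells that lack Irf4 is described here from 6 mouse lymphochips, arrays of spotted cDNA that were built for lymphocyte genes. They are the 3 arrays titled as Irf4 KO after 96 h of LPS and the 3 arrays titled as unstimulated Irf4 KO, chosen by title alone, out of 23 mouse arrays and 27 arrays in the series. All cells were splenic B cells of adult Balb-c mice with the Irf4 -/- genotype. The first group was cultured for 96 h with LPS, bacterial lipopolysaccharide, at a dose that the labels give as 20 to 25 mg/ml, and the second group was left untreated. Where the text sets the KO response beside cells with 1 functional allele, it uses Irf4 +/- B cells (Het) of the same strain and tissue, with 4 arrays at 96 h of LPS and 3 unstimulated. The labels do not say how the allele was made, how the B cells were purified or how many mice each RNA came from; the design text calls the repeats biological. On every array the B cell RNA carried Cy5 and a common pool of RNA from B cell, T cell and macrophage lines carried Cy3. A level is therefore a log2 ratio over that pool, centred on the median of its array, and 0 stands near the level of the pool.

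LPS binds Toll-like receptor 4 and, in resting mouse B cells, sets off growth, DNA replication and division before part of the cells become antibody-secreting plasmablasts. IRF4 is a transcription factor that is needed for that last step: it acts upstream of Prdm1, which encodes the repressor Blimp-1, and binds DNA with PU.1 or other partners at composite elements. Growth of activated B cells is driven by MYC, which raises genes of ribosome synthesis, nucleotide supply and the cell cycle, while resting B cells are held quiescent by a separate set of genes that includes Tsc22d3 and Btg1.

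Irf4 was not among the named features, so its loss was not checked on the arrays. Of 12292 features, 559 carried 1 gene symbol, and their means gave 331 genes. The B cell markers measured, Cd79b and Bank1, averaged 2.83 to 3.13 at 96 h and 2.85 to 3.33 before LPS, well above the pool on all 6 arrays. The arrays were unequal. The 3 arrays at 96 h correlated with each other at 0.70 to 0.79 over the named genes, and the unstimulated arrays at 0.50 to 0.69. Unstimulated replicate 2 had 724 features below -6, against 17 to 22 on the 96 h arrays and 19 and 73 on the other unstimulated arrays. The arrays at 96 h all come from the highest of 3 ranges of the authors' database numbers, while each unstimulated array comes from a different range, so a value within that range rests on unstimulated replicate 3 alone. After centring, the named genes as a whole lay lower at 96 h: the median level was -0.32 to -0.40 on the 96 h arrays, against 0.52, 0.18 and -0.08 on the unstimulated arrays. The median difference of the 331 genes was -0.60 (interquartile range -1.002 to -0.06), and 255 of them, 77.0%, lay below 0. Centring on the named features in place of all features brings this median to 0.02, so each group of genes is read below against the median of all named genes.

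The comparison of 96 h of LPS with unstimulated cells asked how cells without Irf4 differ after culture with LPS. The labels give no time in culture for the unstimulated cells. An effect of LPS and an effect of 96 h in culture therefore cannot be told apart. Among 331 genes, 3 passed the limma test (adjusted p under 0.05, Benjamini-Hochberg over 331 genes): Slpi was higher, and Tsc22d3 and Akap12 were lower. That is 0.906% of the genes tested, 0.302% higher and 0.604% lower. At an unadjusted p under 0.05 there were 81 genes, 5 higher (1.51%) and 76 lower (23%). The test pools the spread of all 23 mouse arrays, and a fit of the 6 KO arrays alone gave 63 genes past the threshold (19.0%), 3 higher (0.906%) and 60 lower (18.1%). The count of that smaller fit hangs on single arrays, being 1 without 96 h replicate 2, 0 without 96 h replicate 3, 6 without 96 h replicate 1 and 104 without unstimulated replicate 3. Within the highest database range, where the lone unstimulated array is assumed to vary like the other groups, 2 genes passed.

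**Figure D1:**
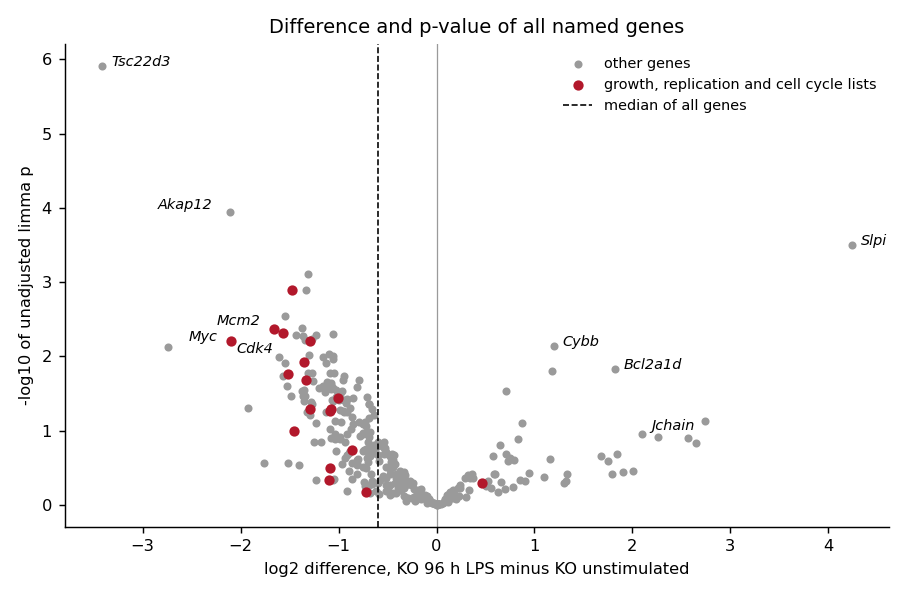
Each point is 1 of 331 named genes, with its log2 difference, KO 96 h LPS minus KO unstimulated, on the x axis and the -log10 of its unadjusted limma p on the y axis. Tsc22d3 and Akap12 stand apart on the lower side and Slpi on the higher side, and the genes of the growth, replication and cell cycle lists (red) lie mostly left of the dashed median of all genes, -0.60.

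Tsc22d3, which encodes the leucine zipper protein GILZ and is high in resting lymphocytes, had the smallest p-value of all genes. Its level was -0.88, -0.46 and -0.54 on the 96 h arrays, against 3.68, 2.38 and 2.30 on the unstimulated arrays. Every 96 h array lay below the pool and every unstimulated array far above it. The difference was -3.41 ± 0.48 (SE, adjusted p = 0.000405), 10.7-fold lower at 96 h, and against the 1 unstimulated array of the highest database range it was -2.93. Its features agreed, at -3.29 and -3.54.

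Akap12, a scaffold that anchors protein kinase A, had levels of -1.58, -2.45 and -2.26 at 96 h and 0.29, 0.20 and -0.45 before LPS. The groups did not overlap, and its features agreed closely, at -2.10 and -2.12. It fell 4.33-fold, by -2.11 ± 0.43 (SE, adjusted p = 0.0190). The call was lost without 96 h replicate 2 or 3 or unstimulated replicate 1 or 2 (adjusted p = 0.123 to 0.171), and within the highest range (-1.65, adjusted p = 0.161).

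Slpi, the secretory leukocyte protease inhibitor, lay at -0.77, 0.72 and 0.15 at 96 h and at -4.35, -5.22 and -3.04 in unstimulated cells. The lowest 96 h array was more than 2 log2 units above the highest unstimulated array. The difference was 4.24 ± 0.95 (SE, adjusted p = 0.0347), 18.9-fold higher at 96 h. The size rests on 1 of its features: they differed by 1.85 and by 6.63, and the second lay at -6.83 before LPS. With values beyond 6 log2 units left out, the difference was 1.98 and the call was lost (adjusted p = 0.0943). It was also lost within the highest range (3.08, adjusted p = 0.161) and without any single array other than unstimulated replicate 3 (adjusted p = 0.0521 to 0.197).

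Slpi is also a marker of myeloid cells. The mean of the 4 myeloid markers measured (Slpi, Cybb, Ncf1 and Tyrobp) was 1.12, 1.65 and 1.38 on the 96 h arrays, against 0.13, -0.33 and 0.06 on the unstimulated arrays. Slpi is itself part of that mean; the mean of the other 3 genes, a value added after seeing the data, was 1.757, 1.957 and 1.796 on the 96 h arrays, against 1.618, 1.304 and 1.093 on the unstimulated arrays. Cybb, the catalytic subunit of the phagocyte NADPH oxidase, which B cells also express, lay at 2.96, 3.11 and 3.15 at 96 h and at 1.48, 2.18 and 1.97 before LPS, with no overlap in that direction, as for 4.23% of all genes. Its difference of 1.20 ± 0.40 (SE, adjusted p = 0.124) did not pass, although it did in the fit of the 6 KO arrays (adjusted p = 0.0342). Ncf1, another oxidase subunit, differed by 0.63 ± 1.42 (SE) and the adaptor gene Tyrobp by -0.33 ± 0.62 (SE), with overlapping groups. Of this list 3 of 4 genes were higher at 96 h, 1 past the threshold and 2 in the fit of the 6 KO arrays. Over all genes 76 of 331 lay above 0, with 0.302% called higher over all arrays and 0.906% in the smaller fit. A ratio over the pool has no true zero, so no marker can be called absent. Of 3 T and NK cell markers 0 passed: Tcra differed by 1.84 ± 1.40, Gzma by 0.66 ± 0.94 and Cd3g by 0.30 ± 1.03 (SE each). Their mean was 0.07, -0.19 and -1.24 at 96 h, against -0.73, -2.05 and -1.37 before LPS. The part of other cells in the difference of Slpi was not tested, and in bulk RNA more cells of a type and more RNA per cell cannot be told apart.

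**Figure D2:**
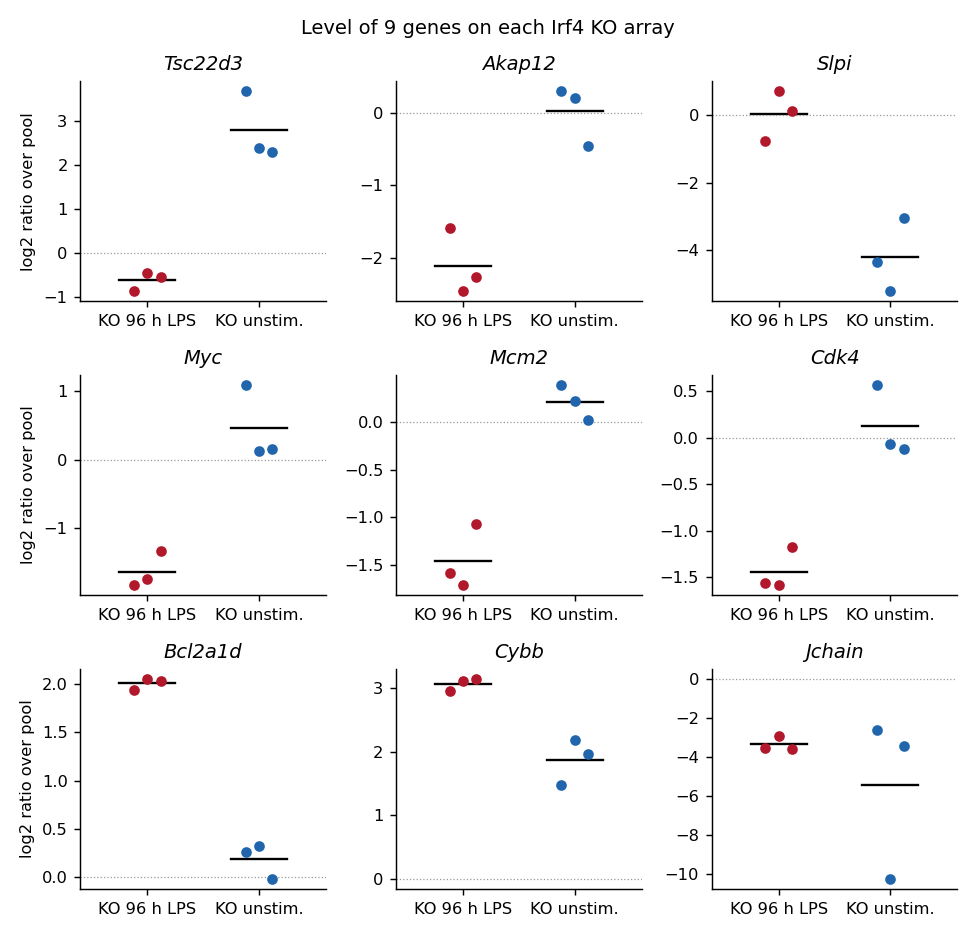
Each panel gives 1 gene's log2 ratio over the pool on the 3 KO 96 h LPS arrays (left, red) and the 3 KO unstimulated arrays (right, blue), with bars at the group means and points in replicate order. Tsc22d3, Akap12, Myc, Mcm2 and Cdk4 are lower on every 96 h array, Slpi, Bcl2a1d and Cybb are higher on every one, and the Jchain mean before LPS is set by 1 array at -10.27.

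Genes of growth lay low at 96 h. All 6 measured members of the MYC and growth list were lower at 96 h with no overlap between the groups (48.3% of all genes were), and all 6 lay below the median of all genes, as 49.8% of the genes did. None passed the test over all mouse arrays, while 5 of 6 passed in the fit of the 6 KO arrays, against 18.1% of all genes. With any 1 of the 96 h arrays left out, that smaller fit called 0 of the 6. Without unstimulated replicates 1, 2 and 3 it called 5, 2 and 6. The median difference of the list was -1.32, against -0.60 for all genes, and it was -0.71 against 0.02 with arrays centred on the named features. Within the highest database range it was -0.91 against -0.32.

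Myc itself was at -1.83, -1.74 and -1.34 on the 96 h arrays, against 1.09, 0.12 and 0.16 on the unstimulated arrays. All 96 h arrays lay below the pool and all unstimulated arrays above it. The difference was -2.09 ± 0.67 (SE, adjusted p = 0.113 over all arrays, 0.0271 in the fit of the 6 KO arrays). Pa2g4, a growth-regulated nucleolar protein, lay at -1.42, -1.49 and -1.40 at 96 h and 0.57, 0.12 and -0.46 before LPS, a difference of -1.52 ± 0.58 (SE, adjusted p = 0.160). Ncl, which encodes the nucleolar protein nucleolin, differed by -1.35 ± 0.48 (SE, adjusted p = 0.141), and Nme1, a nucleoside diphosphate kinase, by -1.29 ± 0.42 (SE, adjusted p = 0.113). The nucleolar chaperone gene Npm1 had the smallest difference in size of the list, -1.01 ± 0.45 (SE, adjusted p = 0.179).

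MYC pairs with MAX on the E-box CACGTG, which reads the same on both strands. The windows of 300 bases around the annotated start of the genes were searched for these letters in RefSeq (GRCm38.p6), where 266 of the 331 genes had a window. The E-box was found in 8.09% of all 27025 genes of the table, in 40 of 266 measured genes (15%), in 11 of 61 genes with a window that were lower at 96 h at an unadjusted p under 0.05 (18.0%), and in 5 of 15 genes of the growth, replication and cell cycle lists (33.3%). These were Cdk4, Fen1, Nme1, Rheb and Tubb5. Because genes of these lists lay low together, 3 of the windows are shown, 5′ to 3′ on the strand of the gene, with each E-box in capitals: Cdk4, with 4 E-boxes (chr10:127063285-127063584, plus strand), Nme1, at 1 of its annotated starts (chr11:93968223-93968522, minus strand), and Rheb, a GTPase upstream of mTORC1 (chr5:24842312-24842611, minus strand), with 1 each.
Cdk4: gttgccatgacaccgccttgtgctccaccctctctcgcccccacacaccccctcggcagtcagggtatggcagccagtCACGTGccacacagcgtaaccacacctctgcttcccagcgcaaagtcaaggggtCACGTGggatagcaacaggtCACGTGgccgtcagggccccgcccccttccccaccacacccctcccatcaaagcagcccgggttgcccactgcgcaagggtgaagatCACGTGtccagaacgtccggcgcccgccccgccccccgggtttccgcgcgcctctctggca
Nme1: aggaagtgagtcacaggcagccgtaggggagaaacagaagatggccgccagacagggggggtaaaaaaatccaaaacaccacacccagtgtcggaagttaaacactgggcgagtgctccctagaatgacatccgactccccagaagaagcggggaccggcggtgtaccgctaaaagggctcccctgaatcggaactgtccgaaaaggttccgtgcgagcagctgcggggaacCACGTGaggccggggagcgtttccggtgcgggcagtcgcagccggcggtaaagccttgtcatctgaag
Rheb: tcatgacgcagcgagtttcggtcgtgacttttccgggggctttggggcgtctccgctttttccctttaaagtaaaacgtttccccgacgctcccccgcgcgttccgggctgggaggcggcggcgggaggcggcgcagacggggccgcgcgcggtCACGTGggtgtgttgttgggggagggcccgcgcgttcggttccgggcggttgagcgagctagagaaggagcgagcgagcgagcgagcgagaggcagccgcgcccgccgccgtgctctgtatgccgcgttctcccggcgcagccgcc
The letters are a description of the windows, not of binding. The ETS-IRF composite element was searched as GGAA, any 2 bases and GAAA, and the IRF element as GAAA, any 2 bases and GAAA, on both strands. Neither was found in the 61 lower genes, against 3.16% and 3.99% of all genes in the table. Each was found in 12 of 266 measured genes (4.51%). Of the 5 genes that were higher at an unadjusted p under 0.05, 1 held each element (20%). No match says only that these letters are not in these windows, and elements elsewhere were not searched.

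DNA replication genes lay low as well. All 5 measured members were lower at 96 h and below the median of all genes, 4 of them without overlap of the groups. Over all genes 77.0% were lower and 48.3% were lower without overlap. None of the 5 passed over all mouse arrays and 4 passed in the fit of the 6 KO arrays, against 18.1% of all genes. That smaller fit called 0 of the 5 with any 1 of the 96 h arrays left out, and 4 with any 1 unstimulated array left out. The median of the list was -1.33, and it was -0.72 with arrays centred on the named features and -1.23 within the highest range. Mcm2, a subunit of the replicative helicase, lay at -1.58, -1.71 and -1.07 at 96 h and at 0.39, 0.22 and 0.02 before LPS. The difference was -1.66 ± 0.51 (SE, adjusted p = 0.113 over all arrays, 0.0271 in the fit of the 6 KO arrays). Pcna, the sliding clamp of the polymerases, was at -1.55, -1.29 and -0.82 at 96 h and 0.23, 0.19 and -0.10 before LPS, a difference of -1.33 ± 0.52 (SE, adjusted p = 0.170). Tk1, the thymidine kinase of dividing cells, differed by -1.30 ± 0.62 (SE, adjusted p = 0.203), and the flap endonuclease gene Fen1 by -1.45 ± 0.84 (SE, adjusted p = 0.308). The exception to the separation of the groups was Rrm2, a subunit of ribonucleotide reductase, at -0.49, -0.65 and -2.47 at 96 h and -0.18, -0.68 and -0.58 before LPS.

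Of 7 cell cycle and mitosis genes 6 were lower and 5 did not overlap, with a median of -1.09 (-0.48 with arrays centred on the named features, -0.70 within the highest range). None passed over all mouse arrays, and 2 of 7, Ccne1 and Cdk4, passed in the fit of the 6 KO arrays. These counts stand beside 77.0% lower, 48.3% lower without overlap and 18.1% called lower in that fit over all genes, and 6 of 7 lower and 2 of 7 called are not far from those shares. With any 1 of the 96 h arrays left out, the smaller fit called 0 of the 7. Without unstimulated replicates 1, 2 and 3 it called 2, 3 and 5. Ccne1, which encodes cyclin E1 of the G1 to S transition, lay at -1.09, -1.01 and -0.97 at 96 h, close together and below the pool, against 0.18, 1.13 and 0.04 before LPS (-1.48 ± 0.39, SE, adjusted p = 0.0708). Cdk4, the kinase partner of D cyclins, was at -1.57, -1.59 and -1.17 at 96 h and 0.57, -0.07 and -0.12 before LPS (-1.57 ± 0.49, SE, adjusted p = 0.113). Tubb5, a tubulin, differed by -1.09 ± 0.53 (SE) and Hmgb2, a chromatin protein of dividing cells, by -0.86 ± 0.62 (SE). The gene in the other direction was Mki67, the proliferation antigen Ki-67, whose groups overlapped at 0.89, -1.08 and -0.87 at 96 h and -0.47, -0.92 and -1.07 before LPS. Its features went opposite ways, by -1.10 and 2.03, and without 96 h replicate 1 all 7 genes of the list were lower. After quantile normalization the list medians were -2.64 for MYC and growth, -2.55 for DNA replication and -2.53 for cell cycle and mitosis, against -0.79 for all genes.

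**Figure D3:**
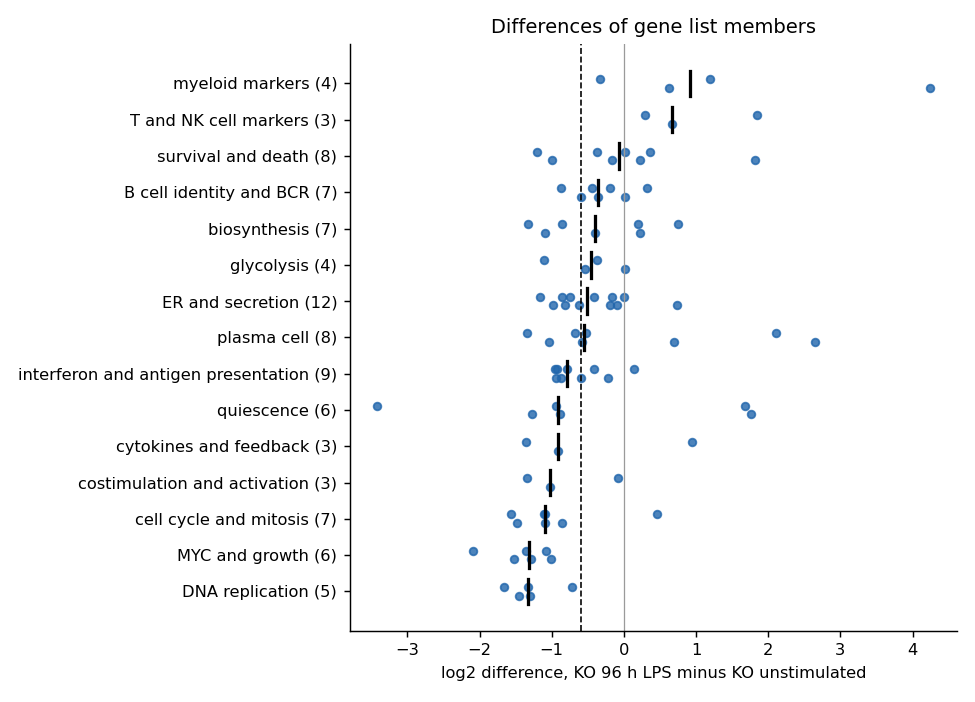
Each point is 1 measured member of a gene list (number of members in brackets), at its log2 difference, KO 96 h LPS minus KO unstimulated. Thick bars are list medians and the dashed line is the median of all 331 genes, -0.60; the DNA replication and MYC and growth lists have the lowest medians, -1.33 and -1.32, and the myeloid markers the highest, 0.91.

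The 96 h values of these genes were not those of the earlier KO cultures. The KO arrays at 24, 48 and 96 h share the same 3 unstimulated arrays, so levels are set side by side here without a test. Of the KO arrays between, 3 carry KO in the title and Het in the channel fields: replicate 3 at 24 h, and replicates 1 and 3 at 48 h. Mcm2 was at 0.39, 0.22 and 0.02 before LPS, 0.16, 1.56 and 1.03 at 24 h, 0.62, 0.17 and 0.64 at 48 h and -1.58, -1.71 and -1.07 at 96 h. All 6 arrays at 24 and 48 h were above the pool, and all 3 at 96 h were below it. The median of all named genes was -0.19, 0.46 and 0.13 on the 24 h arrays and 0.50, 0.13 and 0.22 on the 48 h arrays. It was -0.37, -0.40 and -0.32 at 96 h, so these levels hold a shift of the named genes as a whole. The 24 and 48 h arrays also come from mixed database ranges. Pcna gave 0.23, 0.19 and -0.10 before LPS, 0.31, 2.02 and 1.34 at 24 h, 0.64, 0.54 and 0.90 at 48 h and -1.55, -1.29 and -0.82 at 96 h. Like Mcm2 it was above the pool on all arrays at 24 and 48 h and below it on all at 96 h. Nme1 was at 1.04, 1.38 and 0.91 at 24 h, 0.49, 0.25 and 0.59 at 48 h and -1.32, -1.48 and -1.15 at 96 h. Myc did not have this course: its means were 0.46 before LPS, -0.95 at 24 h, -0.69 at 48 h and -1.64 at 96 h. At 24 h replicate 1 lay at -2.99 and the other arrays at 0.22 and -0.07. Without the arrays of conflicting labels, 1 array at 48 h and 2 at 24 h remain, and their Mcm2 levels, 0.17 at 48 h and 0.16 and 1.56 at 24 h, also lay above all 96 h arrays.

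Tsc22d3 was low at the first time measured. It was at 3.68, 2.38 and 2.30 before LPS, -0.96, -0.93 and -0.92 at 24 h, 0.28, -0.17 and -0.39 at 48 h and -0.88, -0.46 and -0.54 at 96 h. Every LPS array lay at least 2 log2 units below the lowest unstimulated array. Akap12 was at -0.92, -1.01 and -0.99 at 24 h, -0.66, 0.10 and -0.44 at 48 h and -1.58, -2.45 and -2.26 at 96 h. Its lowest levels were those at 96 h. Slpi was scattered at the earlier times, with -2.34, -3.40 and -0.97 at 24 h and -5.37, -1.41 and -1.50 at 48 h, all below the 96 h levels.

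**Figure D4:**
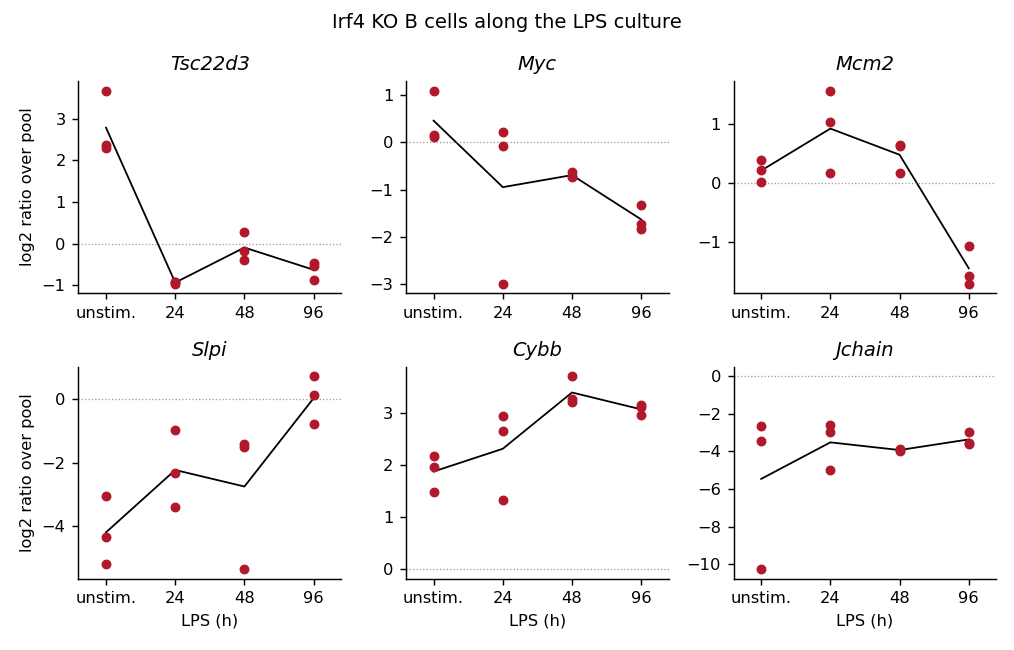
Log2 ratio over the pool of 6 genes on each KO array before LPS and after 24, 48 and 96 h, with lines through the means of 3 arrays per time. Tsc22d3 is low from 24 h on, Mcm2 lies above the pool at 24 and 48 h and below it at 96 h, and Jchain is below the pool at every time.

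The members of the quiescence list did not all move 1 way. Of 6 measured, 4 were lower and 2, Rgs1 and Foxp1, were higher. Without unstimulated replicate 2, 5 were lower and 1 was higher. Tsc22d3, Ets1, Btg1 and Trp53inp1 were lower without overlap of the groups, as 48.3% of all genes were. The features of each of these 4 genes agreed in sign. Only Tsc22d3 passed the threshold over all arrays. The list median was -0.91, and 4 members lay below the median of all genes. With arrays centred on the named features 4 were lower too, with a median of -0.30. Ets1, a transcription factor that holds back plasma cell differentiation in mouse B cells, was at 0.81, 0.61 and 0.65 at 96 h and 2.13, 1.72 and 2.03 before LPS. These groups were far apart, and the difference of -1.27 ± 0.59 (SE) had an adjusted p of 0.186 over all arrays and 0.0281 in the fit of the 6 KO arrays. Btg1, an antiproliferative gene, lay at 2.004, 1.87 and 1.93 at 96 h and 3.53, 2.67 and 2.26 before LPS (-0.88 ± 0.42, SE, adjusted p = 0.203). Trp53inp1, a stress-induced p53 target, differed by -0.94 ± 0.76 (SE, adjusted p = 0.477). On the higher side were Rgs1, a regulator of G protein signalling that is induced in activated B cells, at 1.28, 0.06 and 0.02 at 96 h and -1.63, -0.37 and -1.68 before LPS (1.68 ± 1.33, SE, adjusted p = 0.462), and Foxp1, whose difference of 1.76 ± 1.49 (SE) is set by unstimulated replicate 2 at -5.19. Ets1 and Btg1 had lower levels at 24 h than at 96 h, at -0.54, -0.59 and 0.51 and -0.09, 0.83 and 0.31.

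Plasma cell genes gave no common direction. Of 8 measured members 5 were lower and 3 higher, 0 passed in either fit (the limma test over all arrays or the 6 KO arrays alone), and the median of -0.55 was close to that of all genes. With arrays centred on the named features 3 were lower and the median was 0.06. Jchain, whose product joins the subunits of polymeric IgM and IgA, was far below the pool on every KO array: -3.53, -2.95 and -3.60 at 96 h and -2.66, -10.27 and -3.46 before LPS. The mean difference of 2.10 ± 1.25 (SE, adjusted p = 0.320) comes from unstimulated replicate 2, and without that array it was -0.30. The level at 24 and 48 h was between -4.98 and -2.59. On Het arrays the same feature read 3.78, 4.18, 4.09 and 4.15 at 96 h and 1.83, 2.65 and 1.45 before LPS, all above the pool.

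Prdm1, which encodes Blimp-1, lay at 0.04, 0.42 and 0.34 at 96 h and -0.90, -5.58 and -0.66 before LPS, on 1 feature. The size of its difference, 2.65 ± 1.76 (SE, adjusted p = 0.374), leans on unstimulated replicate 2. Unlike Jchain, Prdm1 was higher on every 96 h array, as 4.23% of all genes were. Its difference kept its sign in all 25 alternatives, with 0.93 as the smallest, and passed in 0 of them. Several of the 25 could not change the difference, since they alter only the spread or arrays outside the 6. Others repeat the difference of another setting, so the 25 are not separate checks of its sign. Xbp1, a transcription factor that expands the secretory apparatus, was at -0.85, -0.56 and -0.21 at 96 h and 0.69, -1.02 and 0.47 before LPS (-0.59 ± 0.50, SE, adjusted p = 0.493). Ell2, an elongation factor that favours secretory immunoglobulin mRNA, was at -0.49, -0.48 and -0.57 at 96 h and 1.19, -0.71 and -0.46 before LPS (-0.52 ± 0.82, SE, adjusted p = 0.721), and the groups of both genes overlapped. Mzb1, an ER protein of marginal zone B cells and plasma cells, lay at -0.11, -0.40 and -0.21 at 96 h and 1.01, -0.05 and 0.36 before LPS, with a difference of -0.68 ± 1.71 (SE, adjusted p = 0.842). Iglv1, a lambda variable segment whose features may also bind related segments, was at 1.47, 1.28 and 1.09 at 96 h and 2.58, 2.60 and 1.77 before LPS, without overlap (-1.03 ± 0.61, SE, adjusted p = 0.320). Slc3a2, the heavy chain of amino acid transporters, was at -1.79, -1.78 and -1.70 at 96 h and 0.37, -0.55 and -1.05 before LPS (-1.34 ± 0.43, SE, adjusted p = 0.113).

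Genes of the endoplasmic reticulum and secretion followed the named genes as a whole. Of 12 measured 10 were lower, 6 of 12 lay below the median of all genes, and the list median was -0.52. Centred on the named features, 6 of 12 were lower. None passed over all arrays. Atf4, the transcription factor of the integrated stress response, passed in the fit of the 6 KO arrays (-1.16 ± 0.41, SE of the fit over all arrays, adjusted p = 0.136 there and 0.0281 in the 6 KO arrays). It lay at -1.05, -1.17 and -0.997 at 96 h, against 0.31, 0.04 and -0.08 before LPS, well apart. Ppib, a prolyl isomerase of the ER, differed by -0.75 ± 0.45 without overlap, the translocon gene Sec61a1 by -0.98 ± 0.60 and Herpud1, of ER-associated degradation, by -0.81 ± 0.68, both with overlapping groups (SE each, adjusted p = 0.320, 0.342 and 0.488). The other 8 genes lay between -0.86 for Kdelr1, a receptor that returns ER proteins, and 0.73 for Srp9, of the signal recognition particle.

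Of the survival and NF-kB genes none passed over all arrays. Bcl2a1d, a BCL2 family survival gene and NF-kB target, lay at 1.94, 2.06 and 2.03 at 96 h and 0.26, 0.32 and -0.02 before LPS. The groups were far apart and each was tight, and the difference was 1.82 ± 0.67 (SE, adjusted p = 0.158 over all arrays, 0.0113 in the fit of the 6 KO arrays). At 24 h it read 4.19, 2.60 and 2.79 and at 48 h 2.93, 2.42 and 2.76, above the 96 h levels. Mouse Bcl2a1 genes are near-identical copies, so these features may read more than 1 of them. The survival list as a whole went both ways, with 4 of 8 lower and 4 higher, Bcl2a1d among them, and a median of -0.07. After quantile normalization 5 of 8 were lower and the median was -0.82, against -0.79 for all genes. The short-lived BCL2 relative Mcl1 lay at -0.34, -0.42 and -0.27 at 96 h and 1.48, 0.70 and 0.39 before LPS (-1.20 ± 0.50, SE, adjusted p = 0.172) and the apoptosis inhibitor Birc3 at 0.99, 0.69 and 1.01 at 96 h and 2.51, 1.76 and 1.42 before LPS (-0.996 ± 0.45, SE, adjusted p = 0.179). The pro-apoptotic gene Bcl2l11, which encodes BIM, differed by 0.37 ± 0.41 (SE) with overlapping groups. Ikbke, a kinase of NF-kB and interferon signalling, was at 0.38, 0.42 and 0.04 at 96 h and -0.25, -1.69 and -0.78 before LPS (1.18 ± 0.44, SE, adjusted p = 0.158).

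Interferon and antigen presentation genes were lower in 8 of 9 cases, 6 without overlap, with a median of -0.79. Both counts are near the shares over all genes, 77.0% lower and 48.3% lower without overlap. With arrays centred on the named features 5 of 9 were lower and the median was -0.17, and 5 of 9 lay below the median of all genes. None passed in either fit of all arrays or the 6 KO arrays. Irf1, a transcription factor induced by interferon, lay at 0.53, 0.62 and 0.92 at 96 h and 1.73, 1.37 and 1.33 before LPS (-0.79 ± 0.31, SE, adjusted p = 0.170). Tap1, the peptide transporter, differed by -0.96 ± 0.47 (SE, adjusted p = 0.205), Psmb10, an immunoproteasome subunit, by -0.93 ± 0.43 (SE, adjusted p = 0.186) and H2-DMa, which loads peptides on MHC class II, by -0.87 ± 0.49 (SE, adjusted p = 0.293). Sp100, a nuclear body protein induced by interferon, was on the higher side with overlapping groups (0.87 ± 0.47, SE, adjusted p = 0.258).

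Among B cell identity genes 5 of 7 were lower, 0 passed in either fit, and 1 lay below the median of all genes (Id3, an inhibitor of E proteins, -0.87 ± 0.44, SE). Centred on the named features, 1 of 7 was lower, and after quantile normalization all 7 were. Cd79b, the signalling chain of the B cell receptor, lay at 1.99, 2.46 and 2.30 at 96 h and 2.85, 3.25 and 2.43 before LPS, a difference of -0.59 ± 0.39 (SE) that is close to the median of all genes and is 0.02 with arrays centred on the named features. The scaffold gene Bank1 differed by 0.32 ± 0.37 (SE) and the E protein gene Tcf4 by -0.45 ± 0.43 (SE), each with overlapping groups.

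The remaining genes with the smallest p-values on the lower side did not pass over all arrays. Each passed in the fit of the 6 KO arrays, where 18.1% of all genes were called lower. They were picked by p-value from a fit that includes these 6 arrays, so that pass is not separate support. Tec, a kinase of B cell receptor signalling, lay at -0.45, -0.53 and -0.65 at 96 h and 0.63, 1.28 and 0.39 before LPS (-1.31 ± 0.32, SE, adjusted p = 0.0643). Psap, the lysosomal precursor prosaposin, was at 0.11, 0.20 and 0.29 at 96 h and 1.92, 1.31 and 1.38 before LPS (-1.34 ± 0.35, SE, adjusted p = 0.0708). Ppm1g, a nuclear phosphatase, was at -1.36, -1.23 and -1.09 at 96 h and 0.76, 0.18 and 0.02 before LPS (-1.55 ± 0.45, SE, adjusted p = 0.113), and Add1, the membrane skeleton protein adducin 1, at 0.46, 0.21 and 0.45 at 96 h and 1.96, 1.88 and 1.40 before LPS (-1.37 ± 0.42, SE, adjusted p = 0.113). None of these genes had overlapping groups, and 48.3% of all genes were lower without overlap. On the higher side, Pced1b differed by 0.71 ± 0.30 (SE, adjusted p = 0.172). Thbs1, which encodes thrombospondin-1, lay at 3.46, -1.69 and 4.68 at 96 h and -0.82, -0.88 and -0.06 before LPS; 96 h replicate 2 was the lowest of all 6 arrays and the other 96 h arrays the highest.

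Whether the KO response differed from that of Het cells was tested as an interaction in the same limma fit. No gene passed (0%), 42 had an unadjusted p under 0.05, and the smallest adjusted p was 0.0826. By comparison 85 genes (25.7%) passed in the Het response itself, which is no test of a difference between the genotypes. Tsc22d3 and Akap12 passed in both responses: the Tsc22d3 difference was -3.41 ± 0.48 in KO and -4.90 in Het (interaction 1.49 ± 0.66, SE, adjusted p = 0.344), and the Akap12 difference -2.11 ± 0.43 in KO and -3.74 in Het (interaction 1.62 ± 0.59, SE, adjusted p = 0.218). For Myc the values were -2.09 ± 0.67 in KO and -2.27 in Het, an interaction of 0.17 ± 0.92 (SE, adjusted p = 0.949). The interval implied by that SE is wide, so a like size in both genotypes was not shown.

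Slpi differed by 4.24 ± 0.95 in KO and -0.55 in Het (interaction 4.79 ± 1.31, SE, adjusted p = 0.0881). The levels in Het were -1.50, -1.12, -3.15 and -1.06 at 96 h and -2.36, 0.01 and -1.12 before LPS, so unstimulated KO cells had the lowest mean of the 4 groups. Socs2, which cytokines induce and which damps JAK-STAT signalling, lay at -1.45, -1.35 and -1.29 in KO at 96 h and 0.50, -0.90 and -0.94 in unstimulated KO cells, and at 2.02, 2.30, 2.92 and 3.13 in Het at 96 h and 1.000, 1.27 and 0.45 in unstimulated Het cells. It was lower at 96 h in KO and higher in Het, by -0.92 ± 0.45 and 1.69, an interaction of -2.60 ± 0.61 (SE, adjusted p = 0.0826). Ctps, the CTP synthetase, had an interaction of -3.84 ± 0.89 (SE, adjusted p = 0.0826), from -1.33 ± 0.65 in KO and 2.52 in Het, where unstimulated Het arrays read -5.36, -4.43 and -1.60. Ints7, of the Integrator complex, and Trim65, an E3 ubiquitin ligase, had interactions of -2.46 ± 0.65 and -2.64 ± 0.68 (SE, adjusted p = 0.0881 each); their KO levels at 96 h were 0.86, 0.99 and 0.90 for Ints7 and 0.71, 0.73 and 0.70 for Trim65, against 2.76, 1.61 and 1.33 and 2.71, 1.95 and 1.26 before LPS. Both belong to a list of 7 genes chosen on these same arrays for low KO levels at 96 h, so its count, 7 of 7 lower at 96 h with a median of -0.92, is not independent evidence. The interaction counts changed with the unstimulated Het arrays: 13 genes passed without replicate 1, 4 without replicate 2 and 30 without replicate 3. These arrays were unequal as well, with 1333, 1511 and 175 features below -6 on replicates 1, 2 and 3. Replicates 1 and 2 come from the lowest database range, while replicate 3 and all Het arrays at 96 h come from the highest. The Het differences and the interactions rest on these arrays.

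**Figure D5:**
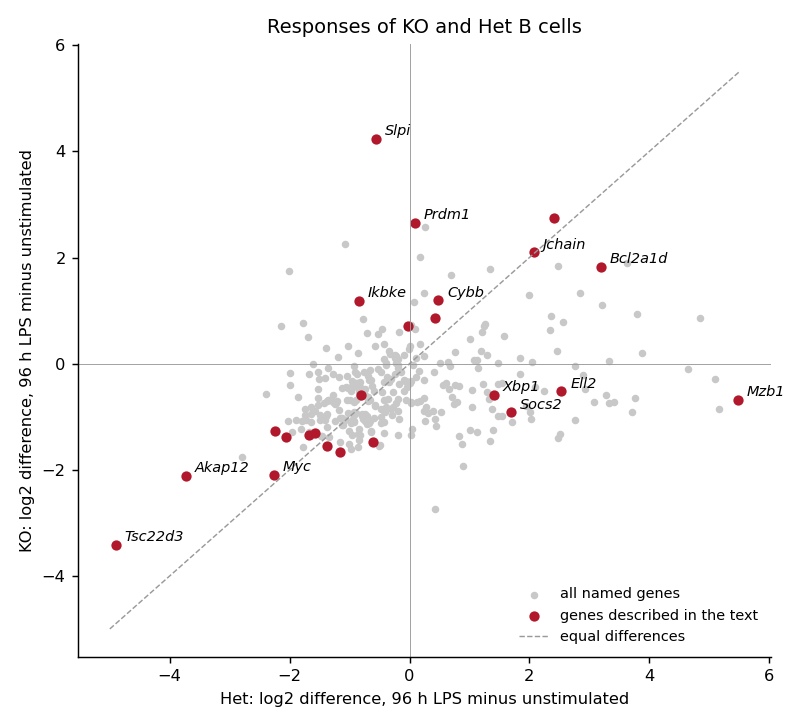
Each point is 1 of 331 genes, with the log2 difference of 96 h LPS minus unstimulated in KO cells on the y axis and in Het cells on the x axis; the dashed line marks equal differences and red points are genes described in the text. Tsc22d3 and Akap12 are low in both, Slpi lies above 0 in KO and below 0 in Het, and Mzb1, Ell2, Socs2 and Xbp1 lie right of 0 and below 0, though no interaction passed the test.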

How the data were processed

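RNA levels were measured on 2-colour spotted cDNA arrays. The authors deposited 1 log2 ratio of the channels for each of 12292 features per mouse array, none of them missing. Trizol RNA was labelled in a reverse transcription reaction, according to the labels' protocols. No source used here gives the scanner, background correction, normalization or filters, or the base and direction of the ratio: base 2 and sample over pool were assumed. On all 23 mouse arrays Cd79b was above the pool; with the opposite direction every sign would turn. Signals of single channels were not analysed here, so signal over background could not be checked, and the number of arrays limits the precision.

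Each array was centred on its median, and features with 1 symbol (44 had several, 11689 none) were averaged per gene, giving 331 genes, of which 109 had 1 feature; in 42 of the other 222 the features differed in sign. The genes were fitted with limma 3.58.1 in R 4.3.3, with a mean for each genotype at each time, over 23 mouse arrays, 2-sided moderated tests and Benjamini-Hochberg adjustment over 331 genes at 0.05. The procedure was also run on simulated data with large planted differences and normal noise, its spread capped at the median over genes. That noise lacks the extreme values and the unequal arrays of the real data, so the run does not show how the test performs on them. Alternatives were other centring, quantile normalization, array weights, robust moderation, other feature summaries, fewer arrays, database range, the replicate number as a block and leaving out arrays; leaving out arrays from the fit of the 6 KO arrays was added after seeing the data. The members and the gene lists were chosen with earlier results of these data known. The text names the 8 genes with the smallest p-values in each direction, up to 4 genes of each list by p-value and 10 genes of interest; other genes named were picked after their values were seen (Npm1, Rheb, Rrm2, Mki67, Foxp1, Kdelr1 and Srp9). Promoter windows are from RefSeq (GRCm38.p6). Replicate numbers were checked as pairs between the 96 h and unstimulated arrays: the correlations of their deviations were 0.20, -0.0081 and 0.11, which does not establish pairs. The human arrays were not used here.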

Additional observations from a re-analysis of the deposited data

Results flagged for a closer look

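Pced1b stood out for 1 array of the Het group, among 24 genes described in the text whose 4 Het values at 96 h were examined. Het 96 h replicate 2 read -0.15, against 0.66 to 0.78 on the other Het 96 h arrays, and its gap to the nearest of them was 0.872 of the whole range, more than Dixon's critical value for 4 samples. Chance gives such a gap in about 1 of 20 groups. The KO values of Pced1b do not use this array.

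Features without a gene symbol lie outside the gene comparison. Tested one by one with limma over all 12292 features, 35 passed the threshold, and 30 of these had no symbol, 14 higher and 16 lower at 96 h in KO. Examples are differences of -4.07 (adjusted p = 0.000632) and -4.01 (adjusted p = 0.00488) on the lower side, and of 4.61 (adjusted p = 0.00672) and 3.27 (adjusted p = 0.0181) on the higher side. Over the 11689 features with no symbol the median difference was 0.10, with 842 lower and 553 higher at an unadjusted p under 0.05. The features with symbols, 603 in all, had a median of -0.69, so the shift of the named genes is not that of the array as a whole.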

How the results depend on the processing

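The 96 h response gave 3 genes past the threshold over all arrays. The count was 16 (9 higher, 7 lower) with arrays centred on the named features, 70 after quantile normalization, 9 once values beyond 6 log2 units were set to missing, 102 with array weights, whose iteration stopped before it converged, 63 with only the 6 KO arrays and 43 without the lowest database range. Leaving out each KO array in turn gave 1 to 3. In the fit of the 6 KO arrays, an alternative added after seeing the data, it gave 6, 1 and 0 without 96 h replicates 1, 2 and 3 and 73, 47 and 104 without unstimulated replicates 1, 2 and 3. The median of all genes was -0.79 after quantile normalization and 0.02 with the named centring. The replicate number as a block gave 3 genes for this comparison and 1 for the difference of the responses, KO minus Het; the numbers do not establish pairs. That difference, with 0 genes over all arrays, had 9 with the named centring, 14 after quantile normalization, 13 with array weights, 15 without the lowest range, 15 in the highest range, 6 with range as a factor and 0 to 30 without single arrays: 13, 4 and 30 without Het unstimulated replicates 1, 2 and 3, and 0 without any other. Tsc22d3 passed in 23 of 25 alternatives, Akap12 in 18 and Slpi in 15, with no change of direction. Of 76 genes 61 kept their direction in all 25. Settings that alter only the spread or arrays outside the 6 could not change a direction. Some others repeat the difference of another setting, so the 25 are not separate checks of direction.

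Values that changed sign did not pass the threshold. With the named centring, Cd79b was 0.019, Tcf4 0.17, Ldha 0.080, Gapdh 0.24, Traf4 0.24, Nr4a1 0.53, Entpd1 0.54, Tyrobp 0.28, Xbp1 0.028 and Ell2 0.094. After quantile normalization, Bank1 was -0.20, Pkm -1.07, Gzma -0.00039, Cd3g -0.44 and Nr4a1 0.20. Jchain was -0.30 with extreme values missing. Without the lowest range, Traf4 was 0.30, Nr4a1 0.089 and Ell2 0.072. In the highest range Tcf4 was 0.014, Nr4a1 1.11 and Cd3g -0.12, and with range as a factor Nr4a1 was 0.35 and Ell2 0.56. Leaving out single arrays gave ranges of -0.30 to 3.51 for Jchain, -0.21 to 0.34 for Pkm, -0.88 to 0.30 for Traf4, -0.68 to 0.34 for Nr4a1, -0.42 to 0.30 for Entpd1, -0.20 to 1.59 for Gzma, -0.35 to 0.74 for Cd3g and -0.88 to 0.072 for Ell2. In the fit of the 6 KO arrays leaving out arrays gave the same differences, with -0.081, -0.089 and -0.21 for Pkm and -0.10 and -0.20 for Gzma among those that changed sign. The cause was not tested.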

Other observations

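The 4 glycolytic genes measured in KO cells depended on the scaling. After 96 h of LPS 3 were lower and 0 passed, with a median of -0.45, above the -0.60 of all named genes. After quantile normalization 4 were lower and 1 passed, with a median of -1.76 against -0.79 for all genes. In that setting 70 of all 331 genes passed, 68 of them lower, so 1 of 4 is not far from the share of all genes. With arrays centred on the named features 1 was lower, with a median of 0.16 against 0.02. Eno3, the muscle-type enolase, lay at -1.75, -2.26 and -1.68 at 96 h and at 0.01, -1.24 and -1.13 before LPS. Pkm and Ldha, the last enzymes of the pathway, were far below the pool on all 6 arrays, and Pkm differed by 0.01 ± 0.66 (SE).

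Among surface and cytokine genes, Alpl, the tissue-nonspecific alkaline phosphatase, was at -2.77, -2.73 and -2.65 at 96 h and at -0.67, -1.88 and -1.55 before LPS. Its difference of -1.35 ± 0.59 (SE, limma adjusted p = 0.179) passed in the fit of the 6 KO arrays (adjusted p = 0.0402). Cd47, an inhibitor of phagocytosis, lay at 0.82, 0.70 and 0.89 at 96 h and 2.42, 1.66 and 1.39 before LPS. Il16, a lymphocyte cytokine, was at -1.26, 1.07 and 1.08 at 96 h and 1.31, 1.85 and 1.78 before LPS, with no overlap (-1.35 ± 0.57, SE, adjusted p = 0.172). Csf1, the macrophage growth factor, overlapped, with 0.33, 0.11 and -0.08 at 96 h and 0.11, -2.32 and -0.24 before LPS. The immediate early genes Jun and Nr4a1 differed by -0.64 ± 0.48 and -0.08 ± 0.42 (SE), each with overlapping groups. Mthfd2, a mitochondrial folate enzyme, was on the higher side in the biosynthesis list (0.75 ± 0.60, SE), where 4 of 7 genes were lower and the median was -0.40.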
